A study of Mus musculus with 12 samples.

Results

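The Celf, Rbfox and Elavl genes encode 3 families of RNA-binding proteins of neurons, and they were examined here for c-Fos peaks in the mouse hippocampus after kainic acid. The 10 genes Celf1 to Celf6, Rbfox1, Rbfox3, Elavl2 and Elavl4 were found by symbol among 21523 protein-coding genes. A peak was counted for a gene when its midpoint lay inside the gene or within 100 kb of it, which gave 26 of 3294 peaks on assembled chromosomes. The genes were chosen by the number of these peaks inside and around them and the peaks per 100 kb of gene length, so all counts and densities below describe the list and carry no test. The other members of the same families, Rbfox2, Elavl1 and Elavl3, were set beside them.

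CUT&RUN, in which an antibody tethers a nuclease that releases the bound DNA for sequencing, was run on CA1, a pyramidal cell field. All mice were C57BL/6, CaMK2a-Cre/+; LSL-Sun1-GFP/+ and 3-4 weeks old, so controls carried both transgenes too. The CaMK2a promoter drives Cre mainly in excitatory forebrain neurons, where Cre switches on a GFP tag of the nuclear envelope, and 50000 sorted GFP+ nuclei went into each reaction. Kainic acid, an agonist of kainate-type glutamate receptors, or PBS acted for 2-3 h, and a c-Fos antibody or rabbit IgG was used on each, giving 4 groups of 3 samples. How many mice stood behind a sample is not stated. The single peak list used describes c-Fos against IgG after kainic acid and holds positions only. Read depth is therefore unknown, no spread over samples can be given, and no value of the PBS groups was analysed here. Whether a peak arose with kainic acid was not tested.

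As background, c-Fos joins a Jun protein to form AP-1, a transcription factor that neurons make after strong firing and that binds enhancers and promoters. Celf proteins bind GU-rich RNA and steer splicing, translation and decay. Rbfox proteins bind the RNA element UGCAUG and set the splicing of many synaptic and channel transcripts. Elavl proteins, also called Hu proteins, bind AU-rich RNA and stabilise it. A c-Fos peak marks DNA near or in such a gene and says nothing of the RNA that the encoded protein binds.

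The sequences that could be read were the promoter windows of RefSeq (GRCm38.p6, the assembly of mm10), which run from 250 bases before to 50 bases after an annotated transcription start. They covered 9 of the 10 genes with 33 windows. Celf4 has none in the table. Annotated starts here and below are those of this table, which may lack others. The only Rbfox3 start in it, for instance, lies 151 kb inside that gene. A peak covered the start in 2 of the 33 windows, both of Elavl2 and under the same peak, and the share among annotated starts of protein-coding genes was 1.06%. These overlapping windows begin 26 bases apart on the minus strand. The peak covers all of both, and the window of the start farther 5′, chr4:91376447-91376746, is shown for the pair.
Elavl2 internal promoter, minus strand: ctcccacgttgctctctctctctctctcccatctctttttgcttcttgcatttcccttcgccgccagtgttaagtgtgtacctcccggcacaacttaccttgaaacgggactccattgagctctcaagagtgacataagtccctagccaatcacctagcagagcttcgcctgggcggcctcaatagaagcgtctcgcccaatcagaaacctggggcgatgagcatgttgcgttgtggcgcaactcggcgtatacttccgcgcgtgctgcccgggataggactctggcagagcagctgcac

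The first peak of Rbfox1 in the direction of transcription covered the start of another transcript, the long noncoding RNA gene Gm52234, which is read from the opposite strand. Of the 300 bases of its window, chr16:5946084-5946383, 254 lay under the peak. It is shown as the only promoter window that a peak inside Rbfox1 touched.
Gm52234 promoter, minus strand: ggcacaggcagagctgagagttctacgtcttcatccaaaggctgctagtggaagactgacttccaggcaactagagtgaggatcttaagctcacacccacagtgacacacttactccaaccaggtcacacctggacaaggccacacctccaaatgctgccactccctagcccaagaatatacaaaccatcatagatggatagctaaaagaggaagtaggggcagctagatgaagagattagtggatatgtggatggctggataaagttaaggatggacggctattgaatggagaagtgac

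Both windows were searched on both strands for the AP-1 motif TGANTCA and the CRE motif TGACGTCA, the site of CREB family proteins, which differ by a base in length and do not contain each other. Neither motif was found in them, which says only that these letters are not in these windows. Most of each peak lies outside its window, and that sequence was not analysed here. Among all 32817 windows of the table, 7.81% held the AP-1 motif and 1.79% the CRE motif. Among the 315 windows whose start a peak covered, 18.1% held the AP-1 motif and 7.94% the CRE motif. Windows can overlap, so these shares can count a site or a peak more than once, and their difference was not tested.

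Across the 33 windows of the Celf, Rbfox and Elavl genes, 2 held the AP-1 motif and 4 the CRE motif. Because windows of neighbouring starts overlap, 3 of the 4 windows with a CRE motif share 1 site, in Celf3, and the other is in Celf6. The 4 distinct sites are printed with the motif in capitals, to show that none of them lay under a peak. The Celf2 site begins 35 bases before an internal start at position 7081302, and the nearest peak lay 9.15 kb from that start. The remaining 3 sites are in genes with no peak inside.
Celf2 AP-1 site, chr2:7081311-7081357, minus strand: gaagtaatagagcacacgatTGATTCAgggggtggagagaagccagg
Celf5 AP-1 site, chr10:81473036-81473082, minus strand: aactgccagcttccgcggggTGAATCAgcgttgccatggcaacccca
Celf3 CRE site, chr3:94484199-94484246, plus strand: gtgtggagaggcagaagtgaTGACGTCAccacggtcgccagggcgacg
Celf6 CRE site, chr9:59578087-59578132, plus strand: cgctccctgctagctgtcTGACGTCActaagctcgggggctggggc

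Peaks were found inside 4 of the 10 genes, against 5.52% of all protein-coding genes. These were Celf2 with 13 peaks, Rbfox1 with 8, Celf4 with 2 and Elavl2 with 1. Celf6 had a peak only in the surrounding window, so 5 of 10 had a peak inside or within 100 kb, against 21.8% of protein-coding genes. At least 2 peaks inside were found in 3 of the 10, against 1.29% of protein-coding genes, and at least 8 in 2, against 0.065%. These cutoffs equal the counts of Celf4 and Rbfox1 themselves, and the shares take no account of gene length. Among genes of like length to Rbfox1, 11.3% had at least as many peaks as it. Celf1, Celf3, Celf5, Rbfox3 and Elavl4 had none. Celf2 and Rbfox1 together held 21 of the 24 peaks inside.

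The genes with peaks were the long ones. Of the 6 genes of 100 kb or longer, 4 had a peak inside, where 28.4% of the 2425 protein-coding genes of that length had one. Of the 4 shorter genes, 0 had a peak inside, where 2.61% of shorter protein-coding genes had one. Counting the window, 4 of the 6 longer genes had a peak, against 42.6% of genes of that length, and 1 of the 4 shorter genes, against 19.2%. The median length was 168 kb for the 10 genes and 17.4 kb for all protein-coding genes. Counts were therefore also read per 100 kb of gene. The pooled value over the 10 genes was 0.672 peaks per 100 kb of gene length, beside 0.193 for protein-coding genes of 100 kb or longer, and 0.405 without Celf2. The median gene had 0 peaks per 100 kb in the list, among all protein-coding genes and among those of 100 kb or longer.

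**Figure D1:**
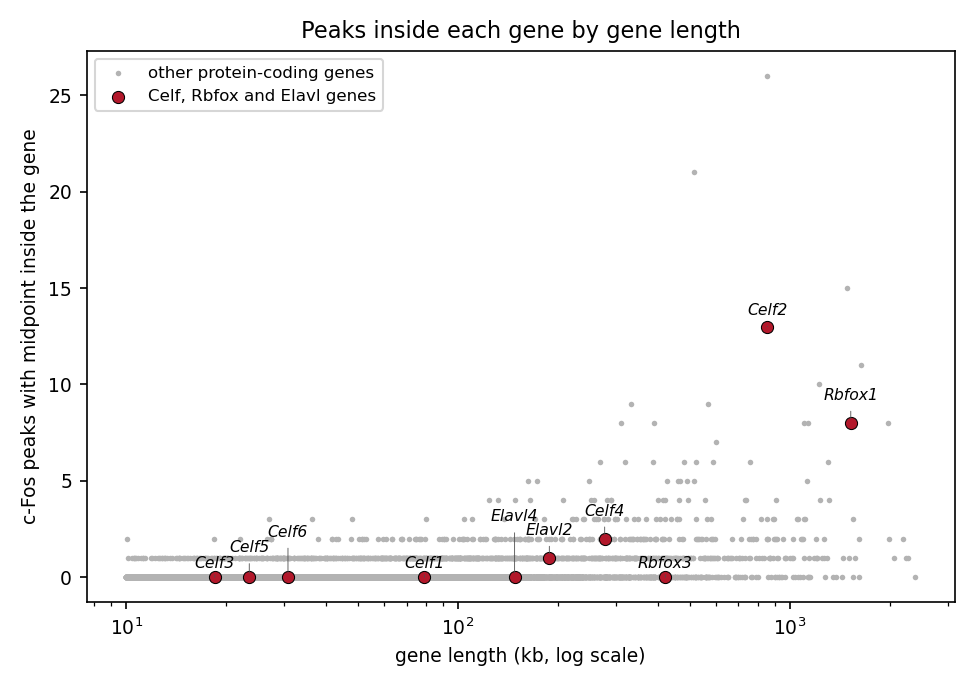
Number of c-Fos peak midpoints inside each protein-coding gene of 10 kb or longer (vertical axis) against gene length in kb (horizontal, log scale), 1 point a gene, with the 10 Celf, Rbfox and Elavl genes in red. Celf2 (13 peaks) and Rbfox1 (8) sit high among genes of their length, while Rbfox3 and Elavl4 lie at 0.

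Per 100 kb of gene length, Celf2 came first with 1.52 peaks, followed by Celf4 with 0.722, Elavl2 with 0.530 and Rbfox1 with 0.524, and the other 6 genes had 0. The values of Celf4 and Elavl2 rest on 2 peaks and 1 peak. Without values per library, whether neighbours in this order differ could not be tested. In the 1 Mb on each side, the density was 0.350 around Celf2, 0.100 around Rbfox1, 0.0500 around Celf4 and 0 around Elavl2. The 4 genes with a peak inside thus held more peaks per length than the DNA around them. The ratio was 4.34 for Celf2, 5.24 for Rbfox1 and 14.4 for Celf4, the last from 2 peaks against 1. The other 6 genes went the other way, with 0 inside and a density above 0 in the 1 Mb on each side. Because the list was chosen on peaks inside and per gene length, these ratios describe it and carry no test. Ratios of other genes with peaks were not set beside them.

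**Figure D2:**
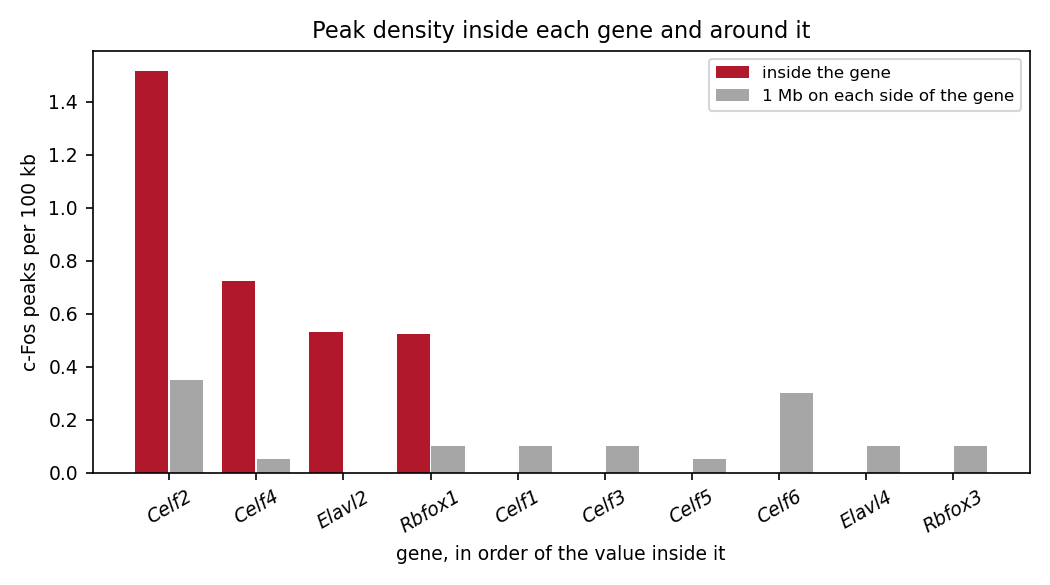
c-Fos peaks per 100 kb inside each of the 10 genes (red bars) and in the 1 Mb on each side of it (grey bars), with genes ordered by the value inside. Celf2 reaches 1.52 inside against 0.350 around it, and 6 genes have no red bar.

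Celf2, also known as CUGBP2 or ETR-3, encodes a regulator of splicing and mRNA stability found in neurons, heart and muscle. The gene spans 857 kb on chromosome 2 (6539694 to 7396341, minus strand) and has annotated starts in 4 places. Only 3 protein-coding genes held more peaks. Of the 146 other protein-coding genes from 0.67 to 1.5 times its length, 67.1% had a peak inside, their median was 1 peak, and 1 of them, Dlgap1 with 26, had at least as many as Celf2. By the density of peaks, the genes of like length closest to Celf2 were Lpp (1.17 per 100 kb) and Clstn2 (1.02), both below its 1.52.

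The peaks of Celf2 lay toward its 5′ end. From that end inward, 4 midpoints stood at 8.71, 17.7, 31.7 and 45.6 kb, 3 at 126, 141 and 162 kb, 3 at 268, 272 and 306 kb, and 3 at 432, 485 and 516 kb. The closest pair was 4.50 kb apart, the median spacing was 26.3 kb, and the widest spacing was 126 kb. After the last peak, 340 kb up to the 3′ end held none.

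Read against the annotated starts, the gene fell into stretches that differ in peaks. The first 315 kb, which lie between the 2 listed starts at the 5′ end and the next listed start, held 10 peaks, or 3.17 per 100 kb. The next 209 kb, up to the start at 6872035, held 3, or 1.43 per 100 kb. The remaining stretches of 150 and 182 kb held 0. None of the 5 annotated starts was covered. The nearest peaks were 8.37 kb downstream of the start at 7396000, 9.15 kb upstream of that at 7081302 and 8.11 kb upstream of that at 6872035, but 158 kb from that at 6721662.

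Of the Celf2 peaks, chr2:7232619-7236464 was the widest at 3846 bp, wider than 99.0% of all peaks. The next were chr2:7349264-7352211 with 2948 bp, chr2:7269160-7271704 with 2545 bp and chr2:7386540-7388719 with 2180 bp, the last being the first peak inside the gene. All 4 lie in the first 162 kb. The peak at chr2:7349264 also overlapped Gm24340, an annotated pseudogene. A further peak, chr2:7438337-7439500, stood 42.6 kb upstream of the 5′ end. Its nearest protein-coding gene other than Celf2 was Usp6nl, 991 kb away.

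Rbfox1, which controls splicing of channel and synaptic transcripts and whose loss in the mouse brain raises seizure susceptibility, is the longest of the 10 genes. It spans 1528 kb on chromosome 16 (5884793 to 7412480, plus strand) and held 8 peaks. Midpoints stood 60.9, 262, 413, 506, 718, 756, 820 and 1395 kb from the 5′ end, so 7 of 8 came before the internal start at 1185 kb. Their median spacing was 151 kb, against 26.3 kb in Celf2, and a stretch of 574 kb between the last 2 peaks held none.

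Per length, Rbfox1 had 0.591 peaks per 100 kb before the internal start and 0.292 after it. Neither of its annotated starts in the table was covered: the nearest peaks were 60.9 and 210 kb away. Among 53 other genes of like length, 71.7% had a peak inside, the median was 1 peak, and 6 (11.3%) had at least as many as Rbfox1, with Magi2 highest at 15. Closest in density were Pde4d (0.461 per 100 kb), a cAMP phosphodiesterase gene, Dab1 (0.444), which acts in reelin signalling, and Dlg2 (0.405), a postsynaptic scaffold gene, beside 0.524 for Rbfox1.

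**Figure D3:**
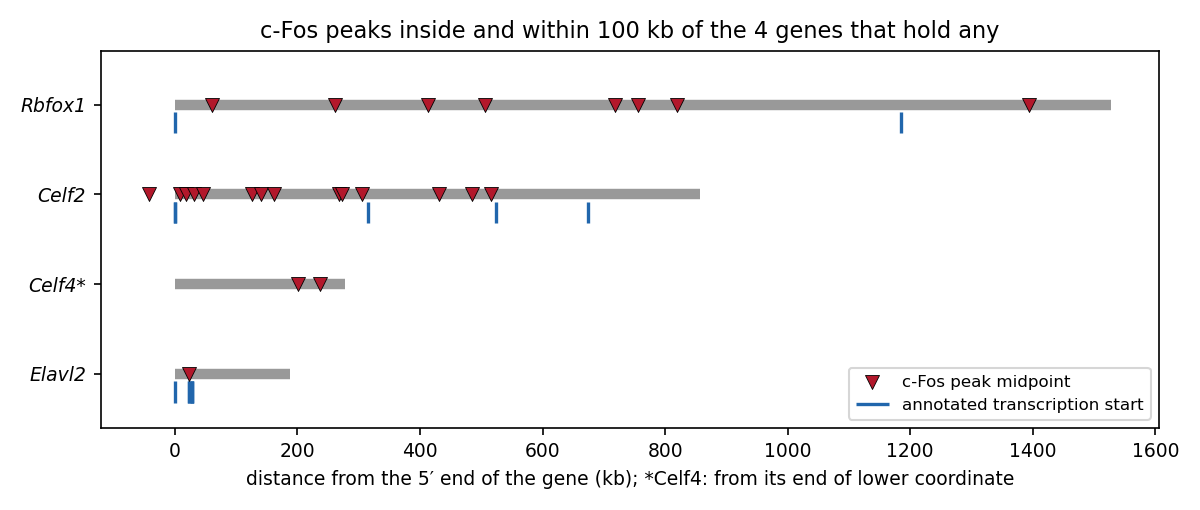
Position of each c-Fos peak midpoint (red triangles) and annotated transcription start (blue bars) along Rbfox1, Celf2, Celf4 and Elavl2, in kb from the 5′ end of the gene (Celf4 from its end of lower coordinate, with no starts in the table). Celf2 peaks end 340 kb before its 3′ end, and the Elavl2 peak sits on internal starts.

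Celf4, a neuronal member whose loss causes seizures in mice, spans 277 kb on chromosome 18 (25477620 to 25754520). It held 2 peaks, chr18:25677642-25679822 with 2181 bp and chr18:25714214-25715175 with 962 bp. They were 36.0 kb apart, at 201 and 237 kb from the end of lower coordinate. The table gave no strand for this gene, so the peaks are not placed relative to its start. Of 769 genes of like length, 11.3% had at least as many peaks. Tmcc3, Slco3a1 and Nos1ap, also with 2 peaks each, were closest in density at 0.716, 0.716 and 0.729 per 100 kb beside 0.722.

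Elavl2, which encodes the neuronal Hu protein HuB, spans 189 kb on chromosome 4 (91211533 to 91400108, minus strand). Its 1 peak, chr4:91375660-91377092 with 1433 bp, had its midpoint 120 and 94 bp downstream of the starts at 91376496 and 91376470, whose promoter is printed above. These starts lie 23.6 kb inside the gene, and 3 further starts follow 4.31 to 4.34 kb downstream of the peak midpoint. Among the peaks of the 9 genes with starts in the table, it was the only one on a start of its own gene; the Celf4 peaks could not be checked. Among protein-coding genes with a start in the table, 1.15% had one covered. No other peak lay within 1 Mb on either side of the gene, and the nearest was 1824 kb away. Of 1200 genes of like length, 23.9% had at least 1 peak inside.

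Of the 22 peaks inside the 3 genes of known strand, 17 lay in the 50% of the gene nearer its 5′ end, made up of 10 of 13 in Celf2, 6 of 8 in Rbfox1 and the 1 in Elavl2. In other protein-coding genes of 100 kb or longer with known strand, 435 of 889 peaks (48.9%) did. Peaks of 1 gene share that gene, so the 22 are not independent, and this difference was not tested.

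Widths were given by the list and were not used to choose the genes. The 24 peaks inside the genes ran from 919 to 3846 bp with a median of 1605 bp, beside a median of 1341.5 bp for all 3294 peaks. In Celf2 the median was 1810 bp and 11 of 13 peaks reached the median of all peaks. In Rbfox1 the median was 1327 bp and 4 of 8 did. Peaks of 2 kb or wider numbered 4 in Celf2, 1 in Celf4 and 0 in Rbfox1, and made up 20.8% of the 24 peaks against 14.4% of all. A width is no measure of binding strength, and the difference between Celf2 and Rbfox1 was not tested.

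**Figure D4:**
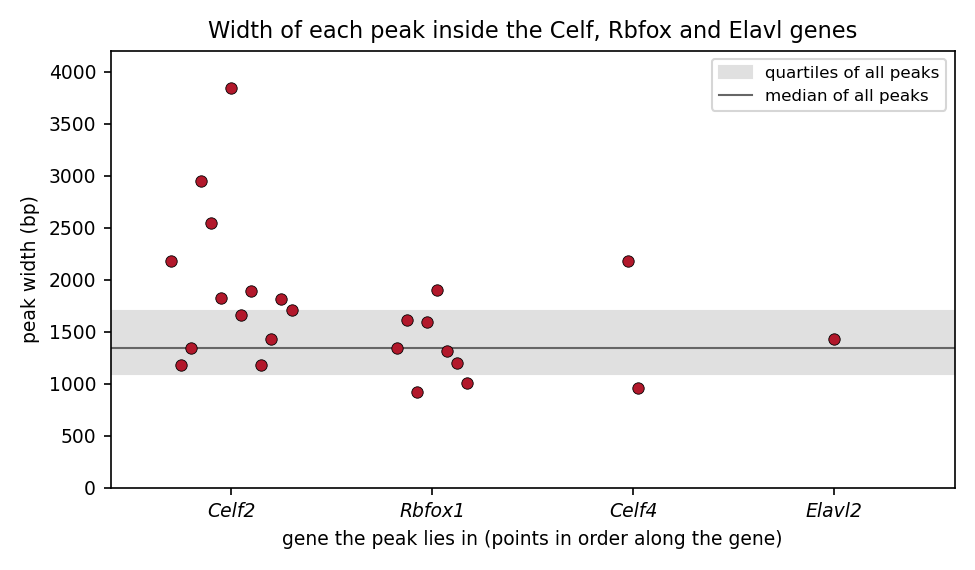
Width in bp of each of the 24 peaks inside Celf2, Rbfox1, Celf4 and Elavl2 (points, in order along the gene), with the median (line, 1341.5 bp) and quartiles (band, 1097 to 1698.75 bp) of all peaks. The 4 widest points of Celf2, from 2180 to 3846 bp, lie above the band.

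Celf6, a neural family member, has 30.7 kb on chromosome 9 (59578287 to 59609033). Its only peak, chr9:59659032-59661070 with 2039 bp, lay 51.0 kb from the gene and inside Pkm, which encodes the glycolytic enzyme pyruvate kinase, so the window alone links it to Celf6. It and the peak upstream of Celf2 were the 2 counted through the window. Beyond the 100 kb limit, the nearest peak stood 155 kb from Celf2 and 196 kb from Rbfox1.

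The 5 genes with no peak had their nearest one at some distance. It was 284 kb from Celf1, a broadly expressed regulator of mRNA decay, 530 kb from Celf5 and 765 kb from Celf3, both neural genes of 23.5 and 18.5 kb. Rbfox3, the gene of the neuronal marker NeuN, is 422 kb long and had its nearest peak 389 kb away. Of 461 genes of like length, 46.0% had a peak inside. Elavl4, the gene of the neuronal protein HuD, is 148 kb long and had its nearest peak at 668 kb, where 19.0% of genes of like length had one inside. The list holds only peaks above a threshold that is not stated, and weaker binding at these genes was not measured.

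The remaining family members also had no peak inside or within 100 kb. The nearest stood 278 kb from Rbfox2, 347 kb from Elavl3, the gene of neuronal HuC, and 353 kb from Elavl1, the gene of the ubiquitous HuR. Among genes of like length, 29.4% had a peak inside for Rbfox2, 3.87% for Elavl3 and 4.26% for Elavl1. Over the 3 complete families, 4 of 13 genes had a peak inside and 5 inside or within 100 kb, beside 5.52% and 21.8% of all protein-coding genes. Of their 7 genes of 100 kb or longer, 4 had a peak inside, beside 28.4% of protein-coding genes of that length. Counting the window it was also 4, beside 42.6%.

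Other RNA-binding protein genes were read from a list of 43, which mixes neuronal genes with ubiquitous ones and some of other tissues. Of these, 4 (9.30%) had a peak inside and 9 (20.9%) inside or within 100 kb, beside 5.52% and 21.8% of all protein-coding genes. Khdrbs2, a splicing regulator gene of 533 kb, held 2 peaks. Mbnl2, whose product controls splicing in the brain, and Srrm4, needed for neuronal microexons, held 1 each in 156 and 153 kb. Tra2a, a splicing activator gene of 20.3 kb, held 1 and had 4 counting the window. Cpeb2, Cpeb3, Hnrnpk, Msi1 and Ptbp1 had 1 peak each in the window only. Of the 12 genes in this list of 100 kb or longer, 3 had a peak inside, beside 28.4% of all protein-coding genes of that length, and 4 had one inside or within 100 kb, beside 42.6%.

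The sorted cell type cannot be checked from a peak list, which holds no expression. Peaks within 100 kb were found for 3 of 8 pyramidal, 5 of 8 interneuron, 0 of 5 astrocyte, 2 of 5 oligodendrocyte and 2 of 5 microglia marker genes, beside 21.8% of all protein-coding genes, and their part in the counts above was not tested.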

How the data were processed

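The deposited list gives chromosome, start and end of 3295 c-Fos peaks and no score. It is attached to 1 sample but was read as a list of the kainic acid c-Fos group. The submitters' processing notes name SEACR 1.1, Bowtie2 2.2.9, Trimmomatic 0.36 and bedtools 2.27.1, and the builds mm10 and sacCer3, without roles. The way replicates were combined is not stated. The 3294 peaks on 19 autosomes and X were used, with 1-based positions. Genes came from a RefSeq table of GRCm38.p6, leaving out 340 that start below 3000000. Strand and starts were read from the promoter windows. Exons and the sequence of peaks were not analysed here. The genes and lists were chosen with earlier results of these data known. Named were all 10 genes, listed genes with a peak, the 3 genes closest in density to each of the 3 genes with most peaks, and genes nearest to or overlapping peaks. A gene chosen by this rule is not reported here. Dlgap1 and Magi2 were named after their values were seen. Counting, with python 3.11.15 and pandas 2.3.3, was tested on simulated peaks. Intervals given cover counting error only. Alternatives were other windows, any overlap, merged peaks, wider peaks, other denominators and leaving out Celf2.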

Additional observations from a re-analysis of the deposited data

How the results depend on the processing

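No paired analysis was possible because the list analysed holds positions for the group as a whole, and leaving out a replicate could not be done. Of 19 alternative values of the 5 main counts and densities, 17 stayed within 1.5 times of the count reported, or inside the interval of the density (0.431 to 0.998 per 100 kb, the exact Clopper-Pearson 95% interval of 24 of 3294 peaks divided by gene length, counting error only). The other 2 left out Celf2: the peaks inside fell from 24 to 11 and the pooled density from 0.672 to 0.405 per 100 kb, since Celf2 holds 54.2% of them. The interval treats peaks as independent, which peaks of 1 gene are not, so it served as a range for comparison and is no test. Merging peaks less than 500 bp apart, or counting any overlap, left 24 peaks inside 4 genes. With a window of 50 kb Celf6 dropped out, leaving 4 genes and 25 peaks. At 200 kb there were 5 genes and 29 peaks. Among peaks of at least the median width, 17 remained inside the same 4 genes, 11 of them in Celf2, 4 in Rbfox1 and 1 in Celf4. With 100 kb added on each side, the density was 0.467 per 100 kb.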
